A study of Mus musculus with 12 samples.

Results

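Pericytes and smooth muscle cells are the mural cells of blood vessels, and 10 of their genes were followed in sorted cells from infarcted mouse hearts. The genes were chosen by symbol as markers of these cells, 5 for pericytes (Pdgfrb, Kcnj8, Abcc9, Rgs5 and Notch3) and 5 for the contractile apparatus (Tagln, Myh11, Acta2, Cnn1 and Des). They are 10 of the 53801 genes in the count table, no symbol among them is shared by another row, and all 10 were among the 14964 genes that passed the filter on low counts. RNA was measured by bulk sequencing in cells labelled as cardiac macrophages, taken after ligation of the left anterior descending coronary artery to cause a myocardial infarction. The cells were sorted by surface CCR2, the receptor for the monocyte chemoattractant CCL2. The libraries form 4 groups of 3: Bhlhe41dTomato-Cre+/- CCR2low, WT CCR2low, Bhlhe41dTomato-Cre+/- CCR2hi and WT CCR2hi, with the first genotype called Cre+/- from here on. Cre+/- mice carry 1 copy of a dTomato-Cre allele at Bhlhe41, a transcriptional repressor gene, and no floxed target is named for them. All mice had the infarction and are given as C57BL/6N and male. The labels do not give the age of the mice, the time after infarction or how many animals made up a library, so p-values measure the spread between libraries, which may be partly technical.

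As background, pericytes sit on capillaries inside the basement membrane they share with the endothelium, and smooth muscle cells wrap arteries and veins. Platelet-derived growth factor from endothelial cells draws pericytes to vessels through the receptor PDGFRB, and Notch ligands on the endothelium signal to NOTCH3 on mural cells. Contraction rests on smooth muscle actin and myosin and on proteins that bind them, whose genes are switched on by serum response factor with its partner myocardin at DNA elements called CArG boxes.

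Such elements are known from the promoter of Acta2, the smooth muscle actin gene, and they are shown here because Acta2 is one of the most abundant members. Each of the 30-base stretches below, from RefSeq on GRCm38.p6, lies on the minus strand. The first is chr19:34255438-34255467 and the second is chr19:34255388-34255417, and the capitals mark a CArG box (C, C, then 6 bases, then G, G) with at most 1 of the 6 inner bases other than A or T.
Acta2 box 1: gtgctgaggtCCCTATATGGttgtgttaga
Acta2 box 2: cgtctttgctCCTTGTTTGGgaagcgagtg
The boxes start at -84 and -34 from the RefSeq start of the gene, and TGGGAA, a core letter string read by the Notch factor RBPJ, overlaps the second box by 3 bases. GENCODE, used for the gene positions below, places the Acta2 start at chr19:34255590, so both boxes lie inside the gene as annotated there. Both strands of the 250 bases before the RefSeq start were searched for 7 members with an entry in the promoter table. This looser CArG box was found in Acta2 alone among the 7, against 8.59% of 32851 mouse promoters, and the strict box, with all 6 inner bases A or T, in none of the 7, against 1.47%. TGGGAA was found in Acta2 and Abcc9, against 21.6% of promoters. GGGCGG, the letters read by the general activator SP1, occurred 4 times in Notch3, 2 times in Des and 1 time in Abcc9, against 32.7% of promoters with at least 1 match. The Notch3 and Des windows are printed as 1 pericyte and 1 contractile member with repeated matches, with GGGCGG or its complement in capitals. They are chr17:32166891-32167140 on the minus strand and chr1:75360042-75360291 on the plus strand of GRCm38.p6.
Notch3: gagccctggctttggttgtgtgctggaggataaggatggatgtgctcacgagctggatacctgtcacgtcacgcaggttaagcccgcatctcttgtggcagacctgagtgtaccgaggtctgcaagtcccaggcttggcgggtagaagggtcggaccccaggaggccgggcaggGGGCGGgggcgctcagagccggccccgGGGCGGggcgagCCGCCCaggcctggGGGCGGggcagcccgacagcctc
Des: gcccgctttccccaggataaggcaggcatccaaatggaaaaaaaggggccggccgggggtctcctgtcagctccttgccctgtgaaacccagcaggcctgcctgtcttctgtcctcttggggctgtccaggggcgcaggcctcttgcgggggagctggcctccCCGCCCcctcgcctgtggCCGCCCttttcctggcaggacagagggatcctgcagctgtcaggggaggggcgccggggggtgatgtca
A match in these letters is a description and was not tied to any change in RNA.

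Bhlhe41, the targeted gene, averaged 6.14 ± 2.84 TPM in Cre+/- CCR2low and 10.5 ± 1.96 TPM in WT CCR2low, and 2.90 ± 0.845 TPM in Cre+/- CCR2hi and 14.4 ± 3.65 TPM in WT CCR2hi (SD, n = 3 each). It was lower in Cre+/- in both gates (log2 fold change -0.77, adjusted p = 0.0221, and -2.23, adjusted p = 5.14e-05, edgeR). Total counts ran from 17.7 to 20.83 M per library. The summed level of 17 macrophage markers averaged 35000 TPM in Cre+/- CCR2low, 38200 TPM in WT CCR2low, 9760 TPM in Cre+/- CCR2hi and 5230 TPM in WT CCR2hi, while 15 fibroblast markers summed to 2020, 3570, 20000 and 38600 TPM in the same order. The CCR2hi libraries thus held more RNA of the fibroblast markers than of the macrophage markers, which goes against their label. Xist had 2027 to 3699 counts in Cre+/- CCR2low and 1403 to 1798 counts in Cre+/- CCR2hi, against 0 to 3 counts in the WT libraries, and 4 Y-linked genes together had 105 to 1446 counts in Cre+/- CCR2low and 182 to 1413 counts in Cre+/- CCR2hi, against 668 to 1741 counts in the WT libraries. Genotype and this difference in sex-linked RNA cannot be told apart here.

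Every member was lowest in Cre+/- CCR2low by mean TPM, the unit that allows levels of different genes to be compared because it is scaled to transcript length. For 8 of the 10 members all 3 Cre+/- CCR2low libraries lay below the other 9 libraries, against 17.3% of the genes tested. The order Cre+/- CCR2low, WT CCR2low, Cre+/- CCR2hi, WT CCR2hi, low to high, held for 8 of 10 members. Rgs5 and Myh11 had the higher mean in Cre+/- CCR2hi than in WT CCR2hi, by less than the spread between libraries. The 10 members together summed to 72.8 to 140 TPM in Cre+/- CCR2low, 320 to 384 TPM in WT CCR2low, 1210 to 1310 TPM in Cre+/- CCR2hi and 1360 to 1680 TPM in WT CCR2hi. Acta2 and Tagln carried most of that sum in every group, and Abcc9, Kcnj8 and Myh11 each carried a few percent or less.

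**Figure D1:**
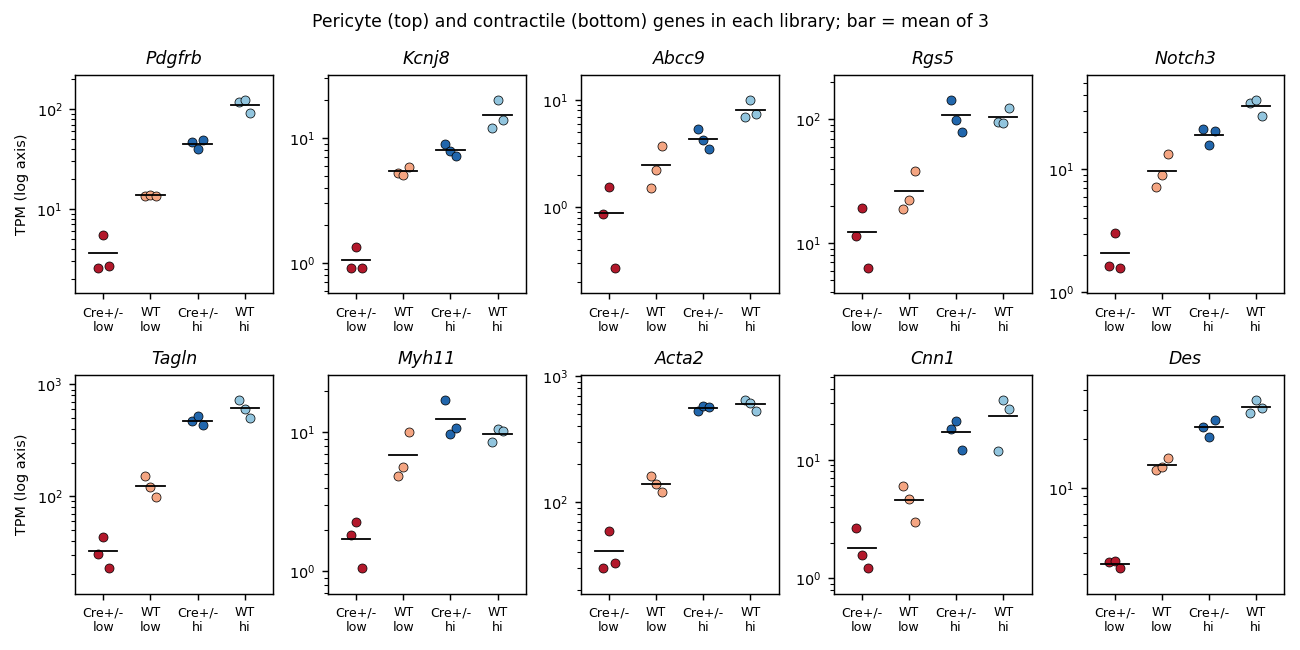
TPM of each member in each library on a log axis, pericyte genes in the top row and contractile genes in the bottom row, with Cre+/- left of WT in each gate (low is CCR2low, hi is CCR2hi). Points are libraries and bars are means of 3; Cre+/- CCR2low has the lowest mean in all 10 panels.

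Among the receptors, Pdgfrb, the PDGF receptor on mural cells and also on fibroblasts, was at 2.56, 5.55 and 2.68 TPM in Cre+/- CCR2low, 13.6, 13.9 and 13.6 TPM in WT CCR2low, 47.0, 39.5 and 48.9 TPM in Cre+/- CCR2hi, and 117, 124 and 91.6 TPM in WT CCR2hi. The 4 groups did not overlap, and the 3 WT CCR2low libraries were almost level. Notch3, the Notch receptor of mural cells (chr17:32120820-32166852, minus strand), was at 1.64, 3.05 and 1.57 TPM in Cre+/- CCR2low, 7.14, 8.91 and 13.2 TPM in WT CCR2low, 21.2, 15.8 and 20.4 TPM in Cre+/- CCR2hi, and 34.4, 36.7 and 27.2 TPM in WT CCR2hi. Its 4 groups did not overlap either.

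Kcnj8 and Abcc9 encode the pore and the sulfonylurea receptor subunit of the ATP-sensitive potassium channel of mural cells, which lets metabolism set their tone. They are neighbours on chromosome 6, both on the minus strand, at chr6:142564837-142571614 and chr6:142587862-142702315, with 16247 bases and no protein-coding gene between them. Kcnj8 was at 0.91, 1.34 and 0.91 TPM in Cre+/- CCR2low, 5.29, 5.10 and 5.86 TPM in WT CCR2low, 8.96, 7.89 and 7.20 TPM in Cre+/- CCR2hi, and 11.9, 20.2 and 13.9 TPM in WT CCR2hi. Abcc9 was at 0.86, 1.54 and 0.27 TPM in Cre+/- CCR2low, 1.51, 2.22 and 3.71 TPM in WT CCR2low, 5.37, 4.25 and 3.51 TPM in Cre+/- CCR2hi, and 6.98, 10.1 and 7.38 TPM in WT CCR2hi. The Kcnj8 groups did not overlap, while the Abcc9 libraries of both CCR2low groups touched in TPM and the second Cre+/- CCR2low library reached the lowest WT one. In that gate Kcnj8 rested on 27 to 41 counts per Cre+/- library and Abcc9 on 29 to 133. The Kcnj8 to Abcc9 ratio of TPM was 1.67 to 2.05 in Cre+/- CCR2hi and 1.71 to 2.01 in WT CCR2hi, and it spread more widely in CCR2low, at 0.870 to 3.37 in Cre+/- and 1.58 to 3.50 in WT.

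Rgs5, a regulator that shortens signalling by G protein-coupled receptors and a classic pericyte marker (chr1:169655501-169695813, plus strand), was at 11.5, 19.2 and 6.28 TPM in Cre+/- CCR2low, 18.9, 22.3 and 38.0 TPM in WT CCR2low, 144, 99.5 and 79.2 TPM in Cre+/- CCR2hi, and 94.7, 93.5 and 124 TPM in WT CCR2hi. It was the most abundant pericyte member in every group but WT CCR2hi, where its mean of 104 ± 17.2 TPM and that of Pdgfrb, 111 ± 16.9 TPM, did not differ beyond their spread. The Rgs5 to Pdgfrb ratio of TPM was 2.34 to 4.48 in Cre+/- CCR2low, 1.39 to 2.79 in WT CCR2low, 1.62 to 3.07 in Cre+/- CCR2hi and 0.755 to 1.35 in WT CCR2hi. In CCR2hi the ratios of the genotypes did not overlap, and in CCR2low they did.

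Of the contractile genes, Acta2, smooth muscle actin (chr19:34241090-34255590, minus strand), was at 29.7, 58.9 and 33.0 TPM in Cre+/- CCR2low, 161, 140 and 119 TPM in WT CCR2low, 527, 576 and 571 TPM in Cre+/- CCR2hi, and 646, 616 and 528 TPM in WT CCR2hi. Tagln, the actin-binding protein transgelin (chr9:45929619-45936058, minus strand), was at 30.2, 43.3 and 22.6 TPM in Cre+/- CCR2low, 153, 121 and 97.5 TPM in WT CCR2low, 474, 520 and 432 TPM in Cre+/- CCR2hi, and 724, 608 and 496 TPM in WT CCR2hi. Both were low in Cre+/- CCR2low, separate from WT in that gate, and overlapping between the genotypes in CCR2hi. The Acta2 to Tagln ratio of TPM stayed between 0.892 and 1.46 in all 12 libraries. Actins have near-identical coding sequence, and Tagln overlaps an antisense gene by 1241 exonic bases, so the split of some reads is uncertain. That antisense gene had 857 counts over the 12 libraries, and Tagln had 52285. The protein-coding gene Pcsk7, on the other strand, overlaps Tagln by 108 exonic bases and had 8279 counts.

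Myh11, the smooth muscle myosin heavy chain and the most specific of these genes for smooth muscle (chr16:14194535-14291372, minus strand), was at 1.83, 2.28 and 1.05 TPM in Cre+/- CCR2low, 4.87, 5.62 and 9.99 TPM in WT CCR2low, 17.1, 9.68 and 10.7 TPM in Cre+/- CCR2hi, and 8.53, 10.6 and 10.2 TPM in WT CCR2hi. Cre+/- CCR2low stood alone at the bottom, and the other 3 groups overlapped. As a share of the Acta2 TPM, Myh11 was 3.18 to 6.16% in Cre+/- CCR2low, 3.02 to 8.36% in WT CCR2low, 1.68 to 3.24% in Cre+/- CCR2hi and 1.32 to 1.94% in WT CCR2hi. Fibroblasts that turn contractile after infarction carry Acta2 and Tagln, so these genes alone do not mark smooth muscle.

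Cnn1, calponin, which restrains the actin-activated myosin motor (chr9:22099216-22109630, plus strand), was at 2.66, 1.58 and 1.21 TPM in Cre+/- CCR2low, 6.01, 4.66 and 3.00 TPM in WT CCR2low, 18.3, 21.4 and 12.2 TPM in Cre+/- CCR2hi, and 11.9, 31.9 and 27.0 TPM in WT CCR2hi. It was the member with the fewest counts, 15 to 22 per Cre+/- CCR2low library. Des, desmin, the muscle intermediate filament that mural cells share with heart muscle (chr1:75360329-75368579, plus strand), was at 3.55, 3.58 and 3.23 TPM in Cre+/- CCR2low, 12.9, 13.5 and 15.2 TPM in WT CCR2low, 23.9, 20.7 and 26.3 TPM in Cre+/- CCR2hi, and 28.9, 34.7 and 31.2 TPM in WT CCR2hi. Its 4 groups did not overlap in TPM, and its libraries within a group were close. Cnn1 overlapped between the genotypes in CCR2hi only.

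The first comparison asks whether the Bhlhe41 allele went with a change of mural RNA among CCR2low cells. All 10 members were called lower in Cre+/- CCR2low than in WT CCR2low by edgeR's quasi-likelihood test at an adjusted p under 0.05, against 26.7% of the genes tested that were called lower. Their median log2 fold change was -1.94, and that of all genes tested was -0.18. Kcnj8 fell most, to 1.85 ± 0.396 CPM (counts scaled to library size, here by TMM) in Cre+/-, against 9.53 ± 0.372 CPM in WT (log2 fold change -2.36 ± 0.23 SE, adjusted p = 2.49e-05). Des had the smallest adjusted p of the members (-1.96 ± 0.135, adjusted p = 2.72e-06), and Rgs5 moved least (-1.09 ± 0.312, adjusted p = 0.0129). In these bulk samples fewer mural cells and less mural RNA per cell cannot be told apart. In CPM the 3 Cre+/- libraries lay below the 3 WT libraries for all 10 members, against 32.3% of genes tested.

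The pericyte and contractile members fell by similar amounts in this gate, with median log2 fold changes of -1.91 and -1.96. Notch3 (-2.18 ± 0.237), Cnn1 (-2.23 ± 0.373), Myh11 (-1.96 ± 0.278) and Pdgfrb (-1.91 ± 0.225) lay beside Kcnj8, and Tagln (-1.86 ± 0.2), Acta2 (-1.79 ± 0.219) and Abcc9 (-1.57 ± 0.383) followed, each with an adjusted p of 0.00531 or less. The Rgs5 call was lost without the third Cre+/- CCR2low library (-0.68, adjusted p = 0.102), without the first (-1.03, 0.0514), without the third WT CCR2low library (-0.80, 0.0587) and without the second Cre+/- CCR2hi library (-0.90, 0.0506). Abcc9 stayed called in those fits but ran from -2.19 without the second Cre+/- CCR2low library to -1.05 without the third.

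Within the Cre+/- hearts all 10 members were lower in CCR2low than in CCR2hi, against 29.1% of genes tested called lower. The median log2 fold change of the members was -2.95, that of all genes was -0.01, and the members ran from -3.64 for Cnn1 to -2.20 for Abcc9. Acta2 averaged 49.5 ± 16.7 CPM in Cre+/- CCR2low and 587 ± 46.9 CPM in Cre+/- CCR2hi (11.8-fold lower, log2 fold change -3.57 ± 0.234, adjusted p = 1.32e-07). Tagln was 11.9-fold lower and Pdgfrb 10.8-fold lower in the same comparison. No library of one gate overlapped the other for any of the 10, in CPM, against 32.6% of genes tested that were lower without overlap. Fibroblast markers were called lower in this comparison for 14 of 15 and higher for 1 (median -3.49), and all 13 endothelial markers were lower (median -2.28). All 17 macrophage markers were called higher (median 2.22), against 3733 of 14964 genes tested. The lower level in CCR2low was thus not particular to mural genes in Cre+/- hearts.

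In WT hearts 9 of 10 members were lower in CCR2low than in CCR2hi, against 30.0% of genes tested, and 9 were lower without overlap in CPM, against 32.2%. The median log2 fold change was -1.52, and that of all genes was 0.01. Fibroblast markers were called lower there for 14 of 15 and higher for 1 (median -3.19), and endothelial markers lower for 12 of 13 (median -1.54). All 17 macrophage markers were called higher (median 3.09), against 4454 of 14964 genes tested. The lower level in CCR2low was thus not particular to mural genes. Of the members, Pdgfrb differed most, with 54.1 ± 3.58 CPM in WT CCR2low, against 340 ± 46.9 CPM for WT CCR2hi (6.28-fold lower, -2.65 ± 0.226, adjusted p = 4.62e-07). Des differed least of those called (-0.83 ± 0.127, adjusted p = 8.14e-05). Myh11 was not called, with a mean of 32.1 ± 10.9 CPM in WT CCR2low, against 36.3 ± 4.70 CPM for WT CCR2hi (-0.18 ± 0.26, adjusted p = 0.574), and its libraries overlapped. Acta2, Tagln and Cnn1 were called lower by -1.72 to -1.89 on the log2 scale, so the myosin gene stood apart from the actin-linked genes in this comparison; scaled instead to the 17 macrophage markers, Myh11 was called lower (-3.45, adjusted p = 1.34e-07), when the median of all genes moved by -3.33.

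**Figure D2:**
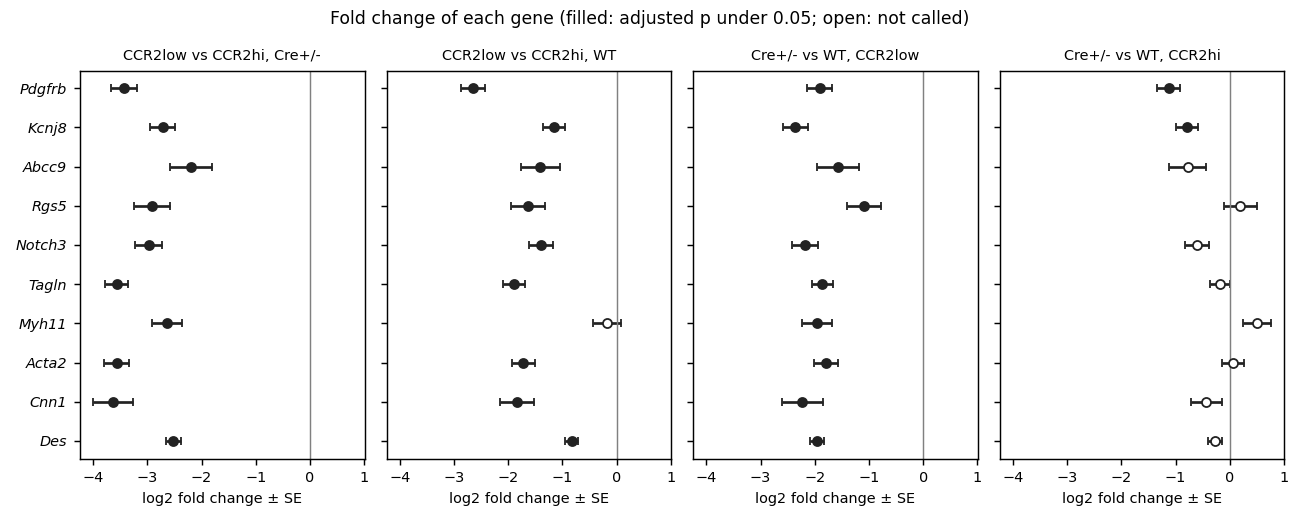
Log2 fold change with its SE (horizontal bar) of each member in the comparisons of gates, left, and of genotypes, right; negative values are lower in CCR2low or in Cre+/-. Filled points are called at an adjusted p under 0.05: 10, 9, 10 and 2 members from left to right.

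Between the genotypes in CCR2hi only 2 of 10 members were called, both pericyte genes and both lower in Cre+/-. That count is near the 15.9% of genes tested called lower. Fibroblast markers were lower there for 5 of 15 and higher for 0 (median -0.6). Pdgfrb averaged 156 ± 16.0 CPM in Cre+/- CCR2hi and 340 ± 46.9 CPM in WT CCR2hi (-1.13 ± 0.214, adjusted p = 0.00162). Kcnj8 averaged 12.3 ± 1.04 CPM in Cre+/- CCR2hi and 21.2 ± 6.11 CPM in WT CCR2hi (-0.79 ± 0.197, adjusted p = 0.0086), a call that was lost without the second WT CCR2hi library (-0.54, adjusted p = 0.0506). Notch3 (-0.61 ± 0.221, adjusted p = 0.0512) and Abcc9 (-0.78 ± 0.349, adjusted p = 0.104) were not called although their libraries did not overlap in CPM. Notch3 lay at the threshold and was called in 10 of 22 alternatives, among them DESeq2 (adjusted p = 0.0305), and Abcc9 was called in 3. Lower without overlap in CPM were 4 of 10 members, against 25.6% of genes tested. Myh11 alone was higher without overlap in CPM, against 22.9%, but its libraries overlapped in TPM. By edgeR on counts Myh11 was not called (0.51 ± 0.259, adjusted p = 0.15).

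None of the 5 contractile genes was called between the genotypes in CCR2hi. Acta2 averaged 587 ± 46.9 CPM in Cre+/- and 563 ± 45.1 CPM in WT (0.06 ± 0.211, adjusted p = 0.856), and Tagln 348 ± 33.8 CPM in Cre+/- and 393 ± 37.8 CPM in WT (-0.18 ± 0.191, adjusted p = 0.505). Des (-0.27 ± 0.125), Cnn1 (-0.43 ± 0.295) and Rgs5 (0.19 ± 0.304) also missed the threshold. The direction of Acta2, Rgs5 and Myh11 depended on the scaling: with counts scaled to the macrophage markers they came to -1.19, -0.94 and -0.62, and 9 of 10 members were then called lower. Under that scaling 72.5% of all genes tested were called lower and their median moved by -1.20, so the count of members is near that of genes in general.

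The difference of the gate effect between the genotypes was tested as an interaction, the CCR2low minus CCR2hi difference in Cre+/- minus the same difference in WT. It was negative for all 10 members and called for 7, against 7.85% of genes tested called negative, a share that was 2.66 to 5.15% without any 1 of 7 libraries (WT CCR2low replicate 1 or 2, WT CCR2hi replicate 1, Cre+/- CCR2low replicate 1, or Cre+/- CCR2hi replicate 1, 2 or 3). The median was -1.64 on the log2 scale, and that of all genes was -0.18. All 5 contractile members were called, with Myh11 the most negative (-2.47 ± 0.379, adjusted p = 0.00222) and Des the smallest in adjusted p (-1.69 ± 0.183, adjusted p = 0.000352). Acta2 came to -1.85 ± 0.302 (adjusted p = 0.00311), Tagln to -1.69 ± 0.274 (adjusted p = 0.00305) and Cnn1 to -1.80 ± 0.476 (adjusted p = 0.0276). Of the pericyte members Kcnj8 (-1.57 ± 0.301, adjusted p = 0.00661) and Notch3 (-1.58 ± 0.319, adjusted p = 0.00869) were called, and both calls were lost with limma on TPM (Kcnj8 -0.82, adjusted p = 0.0784, and Notch3 -1.05, adjusted p = 0.0734).

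Pdgfrb (-0.78 ± 0.305, adjusted p = 0.108), Abcc9 (-0.79 ± 0.514, adjusted p = 0.32) and Rgs5 (-1.28 ± 0.434, adjusted p = 0.07) were not called in the interaction; with the replicate number as a block Rgs5 was (-1.32, adjusted p = 0.0168). Without the second Cre+/- CCR2low library Pdgfrb (-1.16, adjusted p = 0.00879) and Rgs5 (-1.68, adjusted p = 0.0222) were called, and Abcc9 ran from -1.41 to -0.25 over the libraries left out. Scaled to the macrophage markers, 0 of 10 members were called and Pdgfrb (0.59) and Abcc9 (0.48) turned positive, when 0.715% of all genes tested were called negative and their median moved by 1.30. Cnn1 lost its call when any 1 of 6 libraries was left out, named with the alternatives in the closing section.

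**Figure D3:**
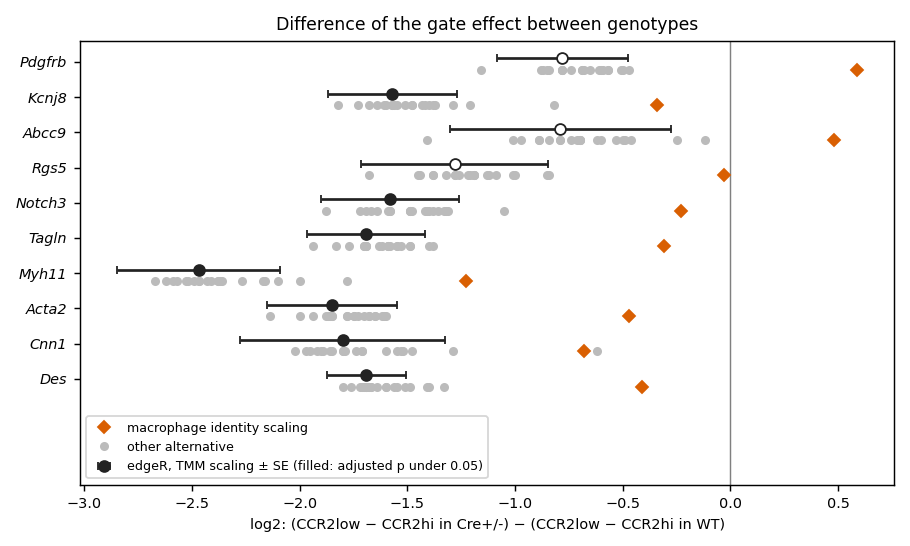
Interaction of each member on the log2 scale: black points with SE bars are the edgeR values with TMM scaling (filled where called), grey points are the other alternatives and orange diamonds the scaling to macrophage markers. All black points lie below 0, and the diamonds of Pdgfrb and Abcc9 lie above it.

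RNA of some other cell types moved with the members between the genotypes in CCR2low and in the interaction. Cardiomyocyte markers summed to 59.1 to 83.0 TPM in Cre+/- CCR2low, 239 to 399 TPM in WT CCR2low, 396 to 512 TPM in Cre+/- CCR2hi and 369 to 516 TPM in WT CCR2hi. In Cre+/- against WT CCR2low, 17 of the 19 cardiomyocyte markers were called lower and 0 higher (median -2.16), against 26.7% of genes tested called lower. Tnnt2, cardiac troponin T, was at -1.79 ± 0.162 and Myh6, a heart myosin, at -2.41 ± 0.251. In the interaction 15 of the 19 were called negative (median -2.27), against 7.85% of genes tested, the sign that Des and the other contractile members had. Between the Cre+/- gates all 19 were called lower in CCR2low, as the members were (median -2.32), against 29.1% of genes tested. Between the WT gates the cardiomyocyte markers did not move with the members, with 2 higher, 2 lower and 15 not called in CCR2low (median -0.16). Of 12 mesothelial and epicardial markers 10 were higher and 2 lower there (median 2.08), against 4454 of 14964 genes tested called higher and 30.0% called lower. The part of cardiomyocyte RNA in the result was not tested.

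Neutrophil markers moved otherwise. They summed to 540 to 664 TPM in Cre+/- CCR2low and 158 to 406 TPM in WT CCR2low, and to 3280 to 5460 TPM in Cre+/- CCR2hi and 81.4 to 327 TPM in WT CCR2hi. All 8 were called higher in Cre+/- than in WT CCR2hi (median 4.40), against 2424 of 14964 genes tested. Between the genotypes in CCR2low 1 of 8 was called higher in Cre+/-, 0 lower and 7 were not called (median 1.16). That count is near the 2448 of 14964 genes tested called higher there. In the interaction 7 of 8 were negative (median -3.50), against 7.85% of genes tested. In Cre+/- against WT CCR2low 7 of 12 mesothelial and epicardial markers (median -1), 4 of 8 Schwann cell markers (median -1.49) and 4 of 9 lymphocyte markers tested (median -1.22) were lower and 0 higher. The share of all genes tested called lower was 26.7% in that comparison. In the interaction 6 mesothelial and epicardial, 1 Schwann cell and 4 lymphocyte markers were negative and 0 positive, with medians of -1.27, -0.96 and -2.88. Of all genes tested 7.85% were called negative there, and 1 of 8 Schwann cell markers is near that share. Of the fibroblast, endothelial and macrophage markers 2 of 15, 1 of 13 and 5 of 17 were negative and 0 positive. Negative interactions were thus also found in lists of cells other than mural cells, and the part of these cells in the members' values was not tested.

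Fibroblast and endothelial markers had smaller median differences between the genotypes in CCR2low. Of 15 fibroblast markers 9 were lower and 1 higher (median -0.94), and their sums were 1470 to 2980 TPM in Cre+/- and 2910 to 3940 TPM in WT. Of 13 endothelial markers 4 were lower (median -0.39), a share near the 26.7% of all genes tested, and their sums overlapped, at 601 to 1080 TPM in Cre+/- and 778 to 1320 TPM in WT. As a share of the fibroblast sum the 10 members were 4.71 to 5.25% in Cre+/- CCR2low and 8.73 to 11% in WT CCR2low. In CCR2hi they were 5.45 to 6.98% in Cre+/- and 3.37 to 4.36% in WT. The shares of the genotypes were thus ordered one way in CCR2low and the other way in CCR2hi, without overlap in either. The fibroblast sum in CCR2hi was itself smaller in Cre+/-, at 17300 to 23600 TPM, against 36400 to 40200 TPM in WT. The members' own sum was also lower there, at 1210 to 1310 TPM in Cre+/- CCR2hi and 1360 to 1680 TPM in WT CCR2hi. The higher share in Cre+/- CCR2hi thus reflects the fibroblast sum. As a share of the endothelial sum the 10 members were 10 to 13% in Cre+/- CCR2low and 24.2 to 48.7% in WT CCR2low. They were 21.9 to 31.6% in Cre+/- CCR2hi and 33.3 to 58.9% in WT CCR2hi, lower in Cre+/- without overlap in both gates. In CCR2hi the endothelial sum itself was larger in Cre+/-, at 4160 to 5880 TPM, against 2860 to 4080 TPM in WT. There 3 of 13 endothelial markers were called higher and 0 lower, against 2424 of 14964 genes tested called higher. The lower share in CCR2hi thus reflects that sum as well as the members. No gene of any marker list was at 0 in all 3 libraries of a group, and the part of these cells in the members' change was not tested.

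**Figure D4:**
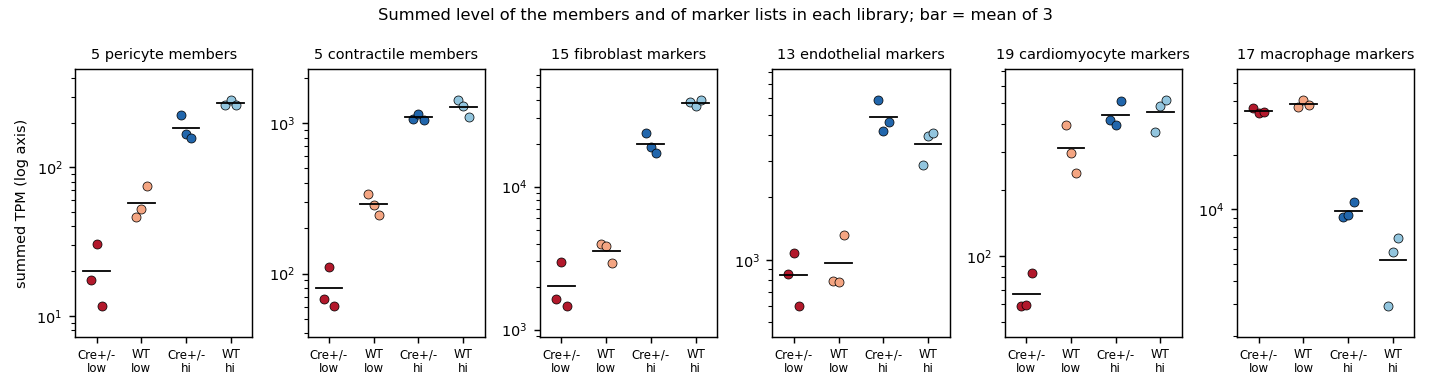
Summed TPM of the members and of marker lists of other cell types in each library on log axes, with Cre+/- left of WT in each gate. Points are libraries and bars means of 3; the contractile members and the cardiomyocyte markers are both lowest in Cre+/- CCR2low, while the endothelial sums of the CCR2low groups overlap.

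Other genes of mural cells were read from lists of related genes. Of 15 other pericyte genes, 13 were lower and 0 higher in Cre+/- than in WT CCR2low (median -1.56), against 26.7% of all genes tested called lower. Vtn, vitronectin, averaged 0.995 CPM in Cre+/- and 7.23 CPM in WT (-2.85 ± 0.273, adjusted p = 2.33e-05), Cspg4, the NG2 proteoglycan, 8.03 CPM in Cre+/- and 24.9 CPM in WT (-1.63 ± 0.18), and Gucy1a1, a subunit of the nitric oxide receptor guanylate cyclase, 5.07 CPM in Cre+/- and 18.5 CPM in WT (-1.86 ± 0.238). Of 28 other contractile genes 18 were lower and 0 higher (median -1.41). Myl9, the smooth muscle myosin light chain, averaged 11.9 CPM in Cre+/- and 42.8 CPM in WT (-1.85 ± 0.169, adjusted p = 1.87e-05), and Tpm2, a tropomyosin, 13 CPM in Cre+/- and 37.8 CPM in WT (-1.54 ± 0.181). In the interaction 12 of the 28 contractile genes and 5 of the 15 pericyte genes were called negative and 0 positive, against 7.85% of genes tested called negative. Among those called were Myl9 (-1.76 ± 0.23), Ppp1r14a, an inhibitor of myosin phosphatase (-1.74 ± 0.243), and Vtn (-1.88 ± 0.35). These interaction counts hold for TMM scaling and were not repeated with scaling to the macrophage markers.

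Of 18 transcription regulators of mural genes, 13 were lower and 0 higher in Cre+/- than in WT CCR2low (median -1.12), against 26.7% of all genes tested called lower. They were led by the forkhead gene Foxs1 (-2.09 ± 0.286), Tcf21 (-1.64 ± 0.232) and Klf4 (-1.06 ± 0.151). Tcf21 is also 1 of the 15 fibroblast markers counted above. Hey1, Hey2 and Heyl are in both the regulator list and the Notch list, and Col1a1 and Col3a1 in both the fibroblast and the myofibroblast list. The counts of these lists are thus not independent. The PDGF ligand gene Pdgfb averaged 33.5 CPM in Cre+/- and 88.4 CPM in WT CCR2low (-1.40 ± 0.294, adjusted p = 0.00219), and 3 of the 5 PDGF genes other than Pdgfrb were lower. Of 19 Notch genes 9 were lower and 2 higher, when 2448 of all 14964 genes tested were called higher. Heyl, a Notch target of mural cells, averaged 3.16 CPM in Cre+/- and 10.2 CPM in WT (-1.70 ± 0.289), whereas the ligand gene Jag1 averaged 83.6 CPM in Cre+/- and 31.0 CPM in WT (1.43 ± 0.212). Jag1 was also called positive in the interaction (1.79 ± 0.296, adjusted p = 0.00311), opposite in sign to Notch3.

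Among receptors for vasoactive agents 8 of 15 tested were lower and 3 higher in Cre+/- than in WT CCR2low. Over all genes tested 26.7% were called lower there and 2448 of 14964 higher, shares that apply to each list in this paragraph. The endothelin receptor gene Ednra was lower (-1.89 ± 0.232) and the serotonin receptor gene Htr2a higher (2.95 ± 0.52). Of 6 tested RGS genes of the Rgs5 subfamily 4 were lower and 0 higher, with Rgs4 at -1.95 ± 0.299. Basement membrane genes of vessels were lower for 5 of 12 and higher for 0 (median -0.49), and myofibroblast genes for 8 of 15 and 0 (median -0.94). In the interaction the myofibroblast genes had a median of 0.33, with 1 called positive and 0 negative, and the basement membrane genes a median of 0.22 with none called. Over all genes tested 710 of 14964 were called positive and 7.85% negative in the interaction.

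Likeness was measured as the root mean square difference between log2 CPM profiles over the 12 libraries, each centred on its own mean. The mean profile of the 5 contractile members was nearest to Myl9 (0.123), Ppp1r14a (0.193), Rarres2 (0.209), Cavin1 (0.252) and Lysmd2 (0.263) among 10534 other genes. That of the 5 pericyte members was nearest to Spry4 (0.168), Ndrg2 (0.197), Adcy6 (0.201), Cebpd (0.217) and Fam171a1 (0.238). Within the members Acta2 and Tagln were the closest pair (0.148), Kcnj8 and Notch3 were close (0.293), and Myh11 and Pdgfrb were the farthest apart (1.06). Kcnj8 was nearer to Notch3 than to its neighbour Abcc9 (0.490). Pdgfrb lay nearer to Tagln (0.413) than to any other pericyte member. These distances describe the same 12 libraries as the comparisons.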

How the data were processed

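RNA was measured in 12 libraries, 3 per group. Per the submitters' processing notes, the tools were CASAVA 1.8, STAR 2.4.0j and RSEM (version not given) with the mm10 build, and neither the annotation nor the strand setting is stated. The deposited tables hold expected counts per Ensembl gene, which the authors gave as whole numbers, and TPM made by the authors. Columns named KD were matched to Bhlhe41dTomato-Cre+/- samples by gate and replicate number, since the labels name no other genotype besides WT, and 0 columns were left unused. Some label fields of the Bhlhe41dTomato-Cre+/- samples are shifted, and their group was taken from the title. Total counts per library were 17.7 to 20.83 M.

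Counts were scaled by TMM, filtered with filterByExpr and fitted with edgeR 4.0.16 in R 4.3.3 (glmQLFit, robust, a mean for each group, 8 residual degrees of freedom, common coefficient of variation 18.9%). Tests were two-sided, with Benjamini-Hochberg adjustment over 14964 genes and a call at an adjusted p under 0.05, in 5 comparisons. SE is the absolute log2 fold change divided by the square root of F. The script was tested on simulated data. Alternatives, 21 listed at the start and 1 added after seeing the data, were other scalings, filters, DESeq2 1.42.0, limma 3.58.1 on log2(TPM + 1), a replicate block, a 1.5-fold minimum and leaving out libraries. Equal replicate numbers were tested for pairing by the correlation of residuals, which for the Bhlhe41dTomato-Cre+/- gates was 0.23, 0.12 and 0.40, above the limit of 0.1 in all 3 pairs, and in WT -0.06, 0.03 and -0.05. Unequal numbers in the Bhlhe41dTomato-Cre+/- gates gave -0.35 to 0.22. Libraries of different genotypes within a gate, which cannot be paired, reached 0.23, so these correlations cannot show pairing. All 10 members are named; of each related list, up to 3 called genes with the smallest p; likeness used genes with a mean of at least 5 CPM and a prior count of 2. The members and lists were chosen with earlier results of these data known. Positions are from GENCODE vM21 on GRCm38, where 99.66% of IDs were found, and promoter sequences from RefSeq. Promoters of the other 3 members were not analysed here.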

Additional observations from a re-analysis of the deposited data

Results flagged for a closer look

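For 7 members the difference between CCR2low and CCR2hi was itself different between the genotypes, by the interaction test of edgeR with adjustment over all genes tested. The interaction values, on the log2 scale and more negative in Cre+/- than in WT hearts, were -1.57 for Kcnj8, -1.58 for Notch3, -1.69 for Tagln, -2.47 for Myh11, -1.85 for Acta2, -1.80 for Cnn1 and -1.69 for Des. The 19 cardiomyocyte markers had a median interaction of -2.27 in the same libraries, and their part in these values was not tested. With counts scaled to the macrophage markers 0 of these 7 calls remained.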

How the results depend on the processing

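All 10 members kept their calls in the Cre+/- gate comparison, and the 9 called members theirs in the WT one, under all 22 alternatives. With scaling to the macrophage markers 90.8% of all genes tested were called lower between the Cre+/- gates and 95.3% between the WT gates. Calls kept under that scaling therefore say little about the members. In Cre+/- against WT CCR2low 8 of 10 members kept their calls under all 22; Rgs5 was called in 15 (adjusted p 0.0025 to 0.126 over the 22) and Abcc9 in 21 (0.0577 with no low-count filter). The 2 members called in CCR2hi became 9 with scaling to the macrophage markers (where 72.5% of all genes were called lower, against 15.9%), 4 with limma on TPM, 3 with DESeq2, DESeq2 size factors or no low-count filter, 1 with the 1.5-fold minimum and 1 to 4 when 1 library was left out: 1 without WT CCR2hi replicate 2, and 4 without WT CCR2hi replicate 1, Cre+/- CCR2low replicate 2 or replicate 3. The 7 members called in the interaction became 0 with scaling to the macrophage markers and 4 with limma on TPM, which lost Kcnj8, Notch3 and Cnn1, and were 9 without Cre+/- CCR2low replicate 2. Directions that turned in CCR2hi were Rgs5 (-0.94), Myh11 (-0.62) and Acta2 (-1.19) with scaling to the macrophage markers, Acta2 with no filter (0), on TPM (-0.09) and without WT CCR2hi replicate 3 (-0.01), and Rgs5 without Cre+/- CCR2hi replicate 1 (-0.06), out of ranges over left-out libraries of -0.01 to 0.10 for Acta2 and -0.06 to 0.36 for Rgs5; in the interaction Pdgfrb (0.59) and Abcc9 (0.48) turned with scaling to the macrophage markers. The cause was not tested. Cnn1 lost its interaction call without WT CCR2low replicate 1 (adjusted p = 0.0704), Cre+/- CCR2low replicate 1 (0.0734) or 3 (0.0699), or Cre+/- CCR2hi replicate 1 (0.086), 2 (0.0824) or 3 (0.0554), and with both Cre+/- replicate 3 libraries left out (0.0519); its range over the 22 was 0.00763 to 0.459. With the replicate block, whose numbers were not shown to pair libraries, the interaction of Rgs5 was called (-1.32, adjusted p = 0.0168) and no other call of a member changed. Of the genes called in the interaction over all genes tested, 37.7% were positive, against 47.8% with DESeq2 size factors, 19.5% with total counts, 62.5% with no low-count filter and 98.2% with scaling to the macrophage markers. Leaving out 1 library gave 28.5 to 63%, with most calls positive without WT CCR2hi replicate 1 (58.1%), Cre+/- CCR2low replicate 3 (62%) or Cre+/- CCR2hi replicate 1 (63%), 2 (59.9%) or 3 (55.9%). Over all genes tested the calls with scaling to the macrophage markers, with the 1.5-fold minimum and in the analysis as reported numbered 13656, 4928 and 8094 between the gates in Cre+/-, 14367, 5509 and 8949 between the gates in WT, 2199, 2486 and 6441 between the genotypes in CCR2low, 11073, 1329 and 4808 in CCR2hi, and 5846, 478 and 1884 in the interaction, where limma on TPM gave 1181 and leaving out 1 library 871 to 2801.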
